A study of Mus musculus with 8 samples.

Results

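Translation initiation and elongation factors are described here across 8 one-colour Agilent mouse arrays. The members were every probe that is not a control spot and whose array symbol starts with Eif1 to Eif6, Eef1 or Eef2, apart from the 1 probe of Eif2ak2. The rule found 64 genes with 134 probes, of 27248 genes with a symbol and 56605 probes in all, and grouped them by factor complex. Of these, 60 genes with 109 probes had a value on at least 3 of 4 arrays in each group and were tested. The 4 genes not tested were Eef1a2, Eif2s3y, Eif4e1b and Eif2c5, whose symbol is an older one of the Argonaute family and names no initiation factor.

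All 8 cultures were proliferating C2C12 cells, a mouse myoblast line, at passage 10, and all had been transfected with Lipofectamine 2000 and LNA GapmeRs, antisense oligonucleotides that direct RNase H to the RNA they pair with. In 4 cultures the GapmeRs were directed at Pvt1, a long non-coding RNA, and 4 cultures received negative control GapmeRs. The line was a single one, so the values hold for these cultures only. The study silenced Pvt1 to learn what the loss of this RNA does to the genes muscle cells express. The GapmeRs are shown because they define the silenced group. The labels list the following pair, without saying which culture received which, and no letter is capitalised.
Pvt1_1: accgtagtagagttaa
Pvt1_3: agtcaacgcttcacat

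Protein synthesis starts when eIF2 brings the initiator tRNA, with GTP, to the small ribosomal subunit, which also carries eIF1, eIF1A, eIF3 and eIF5. The eIF4F complex, made of the cap-binding protein eIF4E, the scaffold eIF4G and the helicase eIF4A, recruits this subunit to the capped end of the mRNA. The 4E-binding proteins block eIF4E when mTOR is inactive, and stress kinases shut down initiation by phosphorylating eIF2, whose GTP is renewed by eIF2B. eEF1 then delivers each aminoacyl-tRNA and eEF2 moves the ribosome along by a codon. In muscle, the rate of these steps sets much of the balance between growth and wasting.

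Levels below are log2 of the quantile-normalized signal, and a change is the silenced mean minus the control mean on that scale, fitted with limma over all 28649 tested probes. A gene was represented by its tested probe with the highest mean, and a call is a limma adjusted p under 0.05. Pvt1 itself, read by its brightest probe, read 9.65, 9.79, 10.31 and 9.70 in controls and 7.09, 6.69, 7.85 and 6.39 in silenced cells, a change of -2.86 (SE 0.32, limma adjusted p 0.000682). Silenced replicate 4 was the dimmest array, with 51.6% of spots positive and significant against 58.8% to 62.5% on the other 7. Of 7 myoblast markers, 3 (Myod1, Des and Cdh15) were called lower (13.2% of all genes tested were), Vim (-0.17), Pax7 (0.02) and Myog (0.13) were not called, and Myf5 was not well above background on any array, while the summed signal of the 7 markers was 108864 to 135550 on control and 72424 to 94456 on silenced arrays. Of 20 liver transcripts, 7 were well above background on all silenced arrays and 1 on all control arrays, with summed signals of 5681 to 7427 and 1167 to 2038, and Apoa1, Apob, Apoc3, Apoh, Fga and Tat were well above background on none. Their part in the results below was not tested.

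The machinery as a whole showed few calls. Among the 60 genes, 1 was called higher (1.67%; background 6.59% of all genes) and 6 lower (10.0%; background 13.2%). Eif2ak3 rose, and Eif2ak1, Eif4a3, Eif4ebp3, Eif4g1, Eif4g2 and Eif4g3 fell. The groups did not overlap in 17 genes (28.3%; background 25.4%). The median change was -0.21 over the members and -0.05 over all 15444 genes tested. In this fit neither share of calls stood above its background. The lower share passed it in 6 of 20 other settings, most with a robust trended prior (20.0% against 14.9% of all genes), and the higher share in none of them. In bulk RNA of this kind, fewer cells expressing a gene and less of its RNA per cell cannot be told apart. With cyclic loess in place of quantile normalization the split was 7 higher and 6 lower, against 24.4% and 13.5% of all genes, and the median of all genes shifted by 0.21. That scaling left Eif4g2 without a call and added Eif1, Eif1ad, Eif2b4, Eif2d, Eif3e and Eif3k as higher and Eif1b as lower. The authors' own table (23.1% higher and 11.8% lower of all genes) and the unmasked signal (21.9% and 10.3%) called the same 13 genes as cyclic loess.

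**Figure D1:**
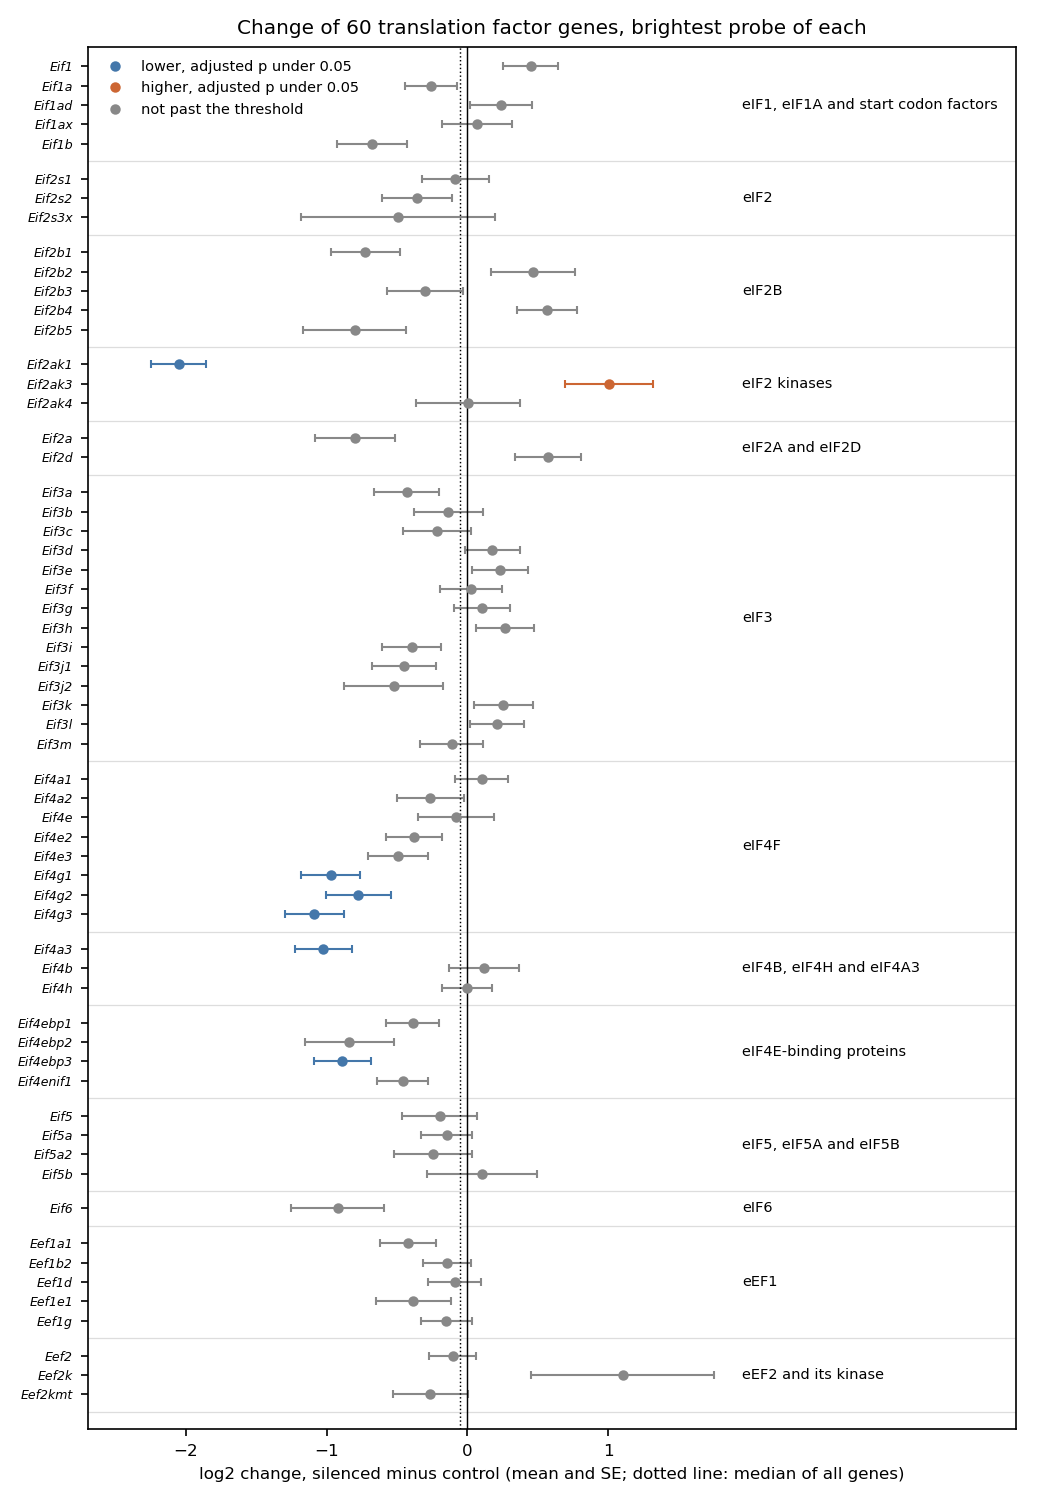
Change in log2 signal (x axis, silenced minus control, with SE) of the 60 tested translation factor genes, each by its brightest probe and grouped by complex, with the median of all genes dotted. The eIF4G genes lie between -0.78 and -1.09, while the 14 eIF3 genes lie between -0.53 and 0.27 with none called.

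All 3 genes of the eIF4G family fell. Eif4g1 encodes the main scaffold, which holds eIF4E, eIF4A and eIF3 together. Its brightest probe (chromosome 16, 20692815 to 20692874, mm9) read 14.86, 15.17, 15.55 and 15.22 on the control arrays and 14.30, 14.37, 14.02 and 14.21 on the silenced arrays. Every silenced value lay below every control value. The signal fell by 0.97 (SE 0.21, limma adjusted p 0.00986) to 50.9% of the control level.

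Eif4g3 encodes a second scaffold of the same kind. It read 12.63, 12.53, 12.87 and 12.77 in controls and 11.68, 11.91, 11.62 and 11.24 in silenced cells, and this fall of 1.09 on the log2 scale (SE 0.21, limma adjusted p 0.00605) also left no overlap. Another pair of Eif4g3 probes had faint control values, between 3.99 and 6.12, and no positive and significant value on any silenced array, so they were not tested.

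Eif4g2 encodes DAP5, a relative of eIF4G that lacks the part binding eIF4E and serves initiation without the cap. Its brightest probe read 14.03, 14.21, 13.58 and 14.10 in controls and 13.29, 13.42, 12.76 and 13.35 in silenced cells. The groups did not overlap, and the change was -0.78 (SE 0.23, limma adjusted p 0.0377). This call was lost, with changes from -0.57 to -0.80, in 12 of 20 other settings, among them those without control replicate 1, 2 or 4 and without silenced replicate 1 or 3 (limma adjusted p 0.083, 0.115, 0.107, 0.075 and 0.079).

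The remaining genes of the eIF4F group were not called by their brightest probes, although a faint 5′ probe of Eif4e was (-1.10, limma adjusted p 0.0326). That probe was well above background on 1 control array and on no silenced array, so its silenced value is only a bound. The group was formed by symbol and took in relatives such as Eif4g2 and Eif4e2, so its values are not those of the complex alone. Eif4e, which encodes the cap-binding protein itself, changed by -0.08 (SE 0.27), and its relatives Eif4e2 and Eif4e3 by -0.38 and -0.49, both without overlap of the groups. Eif4a1 and Eif4a2, the helicases, changed by 0.10 (SE 0.19) and -0.26 (SE 0.24). Over the 8 genes of the group the median was -0.44 (all genes -0.05), and 3 were called lower (13.2% of all genes were), with no test of the group.

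Eif4a3 carries the name of an eIF4A helicase but is known as a core protein of the exon junction complex, deposited on mRNA by splicing. It read 12.82, 13.01, 12.99 and 12.86 in controls and 11.96, 12.26, 11.60 and 11.76 in silenced cells. No silenced array reached the control range, and the change was -1.03 (SE 0.20, limma adjusted p 0.00712), or 49.1% of the control level. Eif4b and Eif4h, which stimulate the eIF4A helicase, were not called, and Eif4b changed by 0.12 (SE 0.25).

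All 4 tested genes of proteins that bind eIF4E had changes below 0, as did 8248 of all 15444 genes, and 1 was called lower (13.2% of all genes were). Eif4ebp3 read 11.21, 11.49, 11.68 and 11.57 in controls and 10.67, 10.88, 10.45 and 10.40 in silenced cells, without overlap. Its change was -0.89 (SE 0.20, limma adjusted p 0.0129). Eif4ebp1, the best studied of these mTOR targets, changed by -0.39 (SE 0.19, limma adjusted p 0.171) and Eif4ebp2 by -0.84 (SE 0.32, limma adjusted p 0.0832). Without control replicate 3, Eif4ebp2 was called lower at -1.16 (limma adjusted p 0.005). Eif4enif1, which encodes the protein that carries eIF4E into the nucleus, changed by -0.46.

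Of the 3 tested kinases that phosphorylate eIF2, Eif2ak1 fell, Eif2ak3 rose with a call that 10 of 20 other settings lost, and Eif2ak4 was not called. Eif2ak1 encodes HRI, the kinase activated by heme shortage and mitochondrial stress, and it showed the largest change of all 60 members. Its brightest probe (chromosome 5, 144662840 to 144662899, mm9) read 10.00, 10.23, 10.26 and 10.30 in controls and 8.36, 8.29, 8.01 and 7.92 in silenced cells. It fell by 2.05 (SE 0.19, limma adjusted p 0.000426) to 24.1% of the control signal, with no overlap. Of its other 3 probes, 1 was called lower (-0.99, limma adjusted p 0.0189), and the pair nearer the 5′ end was well above background on 1 control array each and on no silenced array.

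Eif2ak3 encodes PERK, the eIF2 kinase of the endoplasmic reticulum. It read 8.49, 8.93, 8.26 and 8.92 in controls and 9.79, 9.63, 10.30 and 8.89 in silenced cells. Silenced replicate 4 fell inside the control range, so the groups overlapped. It rose by 1.00 (SE 0.31, limma adjusted p 0.0432). Leaving out any array other than silenced replicate 4 lost this call (limma adjusted p 0.069 to 0.097), as did the slide row as a block (0.96, limma adjusted p 0.143) and the methods' t-test (adjusted p 0.123). A fainter Eif2ak3 probe, AK010397, was well above background on all 4 silenced arrays and on none of the controls, and was at least 1.94-fold higher in silenced cells (fitted change 1.39, SE 0.26, limma adjusted p 0.00584).

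Eif2ak4, which encodes the amino acid sensor GCN2, changed by 0.00 (SE 0.37, limma adjusted p 0.997). Its silenced values ran from 8.95 to 10.88 and its control values from 9.84 to 10.40, with silenced replicate 4 the lowest of all. Eif2ak2 was outside the rule.

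**Figure D2:**
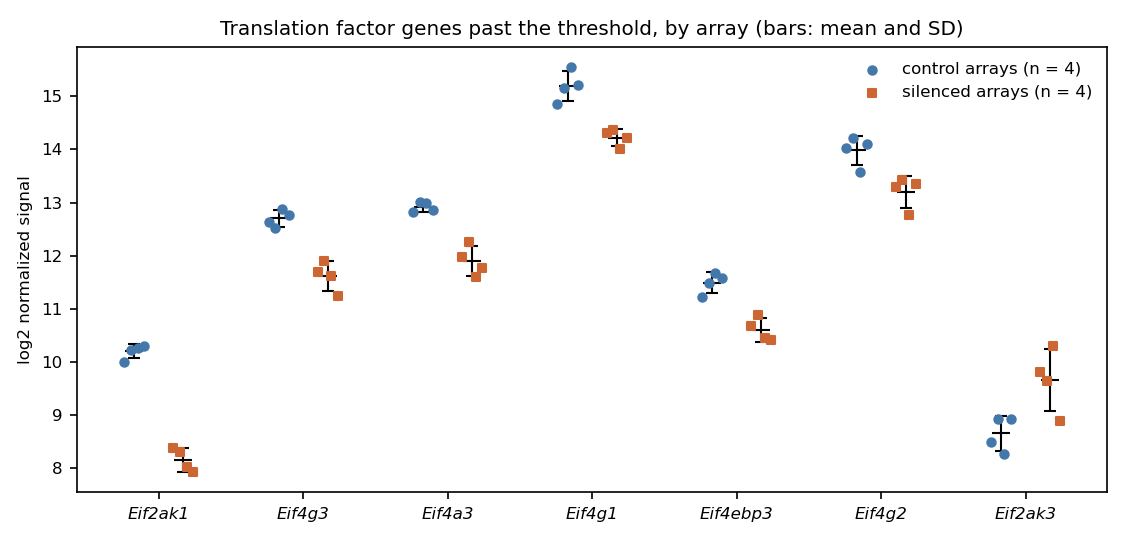
Log2 normalized signal (y axis) of the 7 called translation factor genes on each array, 4 control (circles) and 4 silenced (squares), with mean and SD. Groups are apart in 6 genes, while the lowest silenced value of Eif2ak3, 8.89, lies below the highest control value, 8.93.

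The kinases' substrate eIF2 was not called in any subunit. Eif2s1, the alpha subunit that these kinases phosphorylate, changed by -0.09 (SE 0.24), and Eif2s2 by -0.36 (SE 0.25). Eif2s3x changed by -0.49 with an SE of 0.69, since silenced replicate 4 read 7.60 and the other 3 silenced arrays 10.74 to 11.29. Without silenced replicate 4 the Eif2s3x change was 0.35 (limma adjusted p 0.204). Eif2s3x and the untested Eif2s3y are near-identical copies on the sex chromosomes, so their probes could share signal. The Eif2s3y probes were well above background on no array.

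The eIF2B exchange factor gave changes on both sides of 0. Eif2b1 changed by -0.73 (limma adjusted p 0.0629), Eif2b3 by -0.30 and Eif2b5, the catalytic subunit, by -0.80 (limma adjusted p 0.147). Eif2b2 changed by 0.47 and Eif2b4 by 0.57 (limma adjusted p 0.0809). Eif2b5 read 12.58 to 13.08 in controls and 12.44, 12.53, 12.37 and 10.83 in silenced cells, and without silenced replicate 4 its change was -0.40 (limma adjusted p 0.116). Eif2a and Eif2d, which deliver initiator tRNA without eIF2, changed by -0.80 (limma adjusted p 0.0699) and 0.57.

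The 14 genes of eIF3, the large scaffold on the small subunit, included none that was called. Their changes ran from -0.53 (Eif3j2) to 0.27 (Eif3h) with a median of -0.04, 7 on each side of 0. Eif3a, the largest subunit, changed by -0.43 (SE 0.23), Eif3c by -0.21 (SE 0.24) and Eif3e by 0.23 (SE 0.20). Eif3j1 and Eif3j2 are near-identical copies and may share signal.

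The start codon factors and the factors for subunit joining were not called either. Eif1, which guards start codon choice, read 14.92 to 15.21 in controls and 15.19 to 15.71 in silenced cells, a change of 0.45 (SE 0.20, limma adjusted p 0.129). It was called higher, with changes of 0.45 to 0.62, in 7 of 20 other settings. Eif5, which triggers GTP hydrolysis by eIF2, changed by -0.20, Eif5b, the GTPase that joins the ribosomal subunits, by 0.10, and Eif5a, the hypusine-bearing factor, by -0.15 (SE 0.18).

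Eif6 keeps the large ribosomal subunit from joining too early. Its brightest probe read 14.63, 14.72, 15.24 and 14.76 in controls and 14.16, 14.52, 14.04 and 12.95 in silenced cells. The groups did not overlap, but the change of -0.92 (SE 0.33) had a limma adjusted p of 0.072. A nearly as bright probe of the same transcript was called lower at -1.02 (SE 0.24, limma adjusted p 0.0147), with silenced values of 13.41 to 14.18 against 14.52 to 15.22. Without silenced replicate 2 the brightest probe was called too (-1.11, limma adjusted p 0.045).

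No elongation factor was called by its brightest probe. Eef1a1, which carries aminoacyl-tRNA and has many processed copies in the genome that may share signal, changed by -0.42 (SE 0.20), Eef1b2, part of its exchange factor, by -0.14 (SE 0.17) and Eef1g by -0.15 (SE 0.18). Eef2 read 16.52 to 16.57 in controls and 16.36 to 16.50 in silenced cells. The ranges did not overlap, yet the change was -0.11 (SE 0.17, limma adjusted p 0.696). Eef2k, the kinase that inactivates eEF2, changed by 1.10 with an SE of 0.65, since control replicate 3 read 6.77 and the other 3 controls 9.74 to 10.03. Without control replicate 3 the Eef2k change was 0.32 (limma adjusted p 0.368).

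Several members belong to the mRNAs with a terminal oligopyrimidine tract, which mTOR controls at translation. Of 9 such genes among the members (Eef1a1, Eef1b2, Eef1d, Eef1g, Eef2, Eif3e, Eif3f, Eif3h and Eif4b), none was called by its brightest probe and the median change was -0.09. Another probe was called lower in 4 of the 7 with more than 1 tested probe, Eef1a1, Eef1d, Eef1g and Eef2, where 41.7% of all such genes had a lower probe. The median over the other 51 members was -0.26, and the difference between the lists was not tested.

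Another probe of the same gene could give another answer, about as often as over all genes. By probe rather than by gene, 21 of 109 member probes were called lower (19.3%; background 18.4%) and 2 higher (1.83%; background 4.79%), spread over 16 genes with at least 1 lower probe (26.7%; 24.9% of all genes tested). For 10 of those genes (Eef1a1, Eef1d, Eef1g, Eef2, Eef2k, Eif2b3, Eif2b4, Eif3j1, Eif4e and Eif6) the brightest probe was not called lower, which is 16.7% of the members against 11.6% of all genes. In 13 of the 32 genes with more than 1 tested probe, some probes were called and some were not (40.6%; 42.4% of all genes with more than 1). No member spot was saturated on any array.

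The probes of 5 genes are shown because the size of change differed between the probes of each gene. Each line gives 30 bases of a 60-base probe as the scanner files spell it, in order from the 5′ to the 3′ end of the gene among its tested probes, and the faint probes 1 and 2 of Eif2ak1 are left out. Capitals mark a polyadenylation signal, AATAAA or ATTAAA, on the strand shown, and a line without capitals holds neither in the whole probe. Coordinates are mm9 spans of the whole probe, and exon or UTR position was not analysed here.
Eef2 probe 1, chr10:80640435-80640494: gtgccatcatggacaagaaagccaacatcc
Eef2 probe 2, chr10:80644013-80644072: atgttcatgatgtgaccctgcatgctgatg
Eef2 probe 3, chr10:80645059-80645118: tccaaaagtctaAATAAAtgcattcagagg
Eif2b4 probe 1, chr5:31494089-31494553: tctgctgtgtctgcagctcaacggcaagac
Eif2b4 probe 2, chr5:31489943-31490002: gggaacaagggtcAATAAAaagcttactcc
Eef1d probe 1, chr15:75726764-75726823: caaggacattgacctgttcggcagtgacga
Eef1d probe 2, chr15:75725929-75725988: gtgtgtgaggacctgctgagATTAAAgact
Eif4g1 probe 1, chr16:20675856-20677771: cccaggcttctatccaggtgcaagccctac
Eif4g1 probe 2, chr16:20682236-20682295: acctcatctttgagaaagccatttcagagc
Eif4g1 probe 3, chr16:20689618-20689677: gaccagtagatgacagcaatgcagaggtga
Eif4g1 probe 4, chr16:20692815-20692874: ttattttctgaaatcactcttgggactgcc
Eif2ak1 probe 3, chr5:144662840-144662899: tgtacatttccaacccttagtgaggacagg
Eif2ak1 probe 4, chr5:144664680-144664739: aaagaatttataagtgactagccctttccg

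In Eef2 the fall became smaller from the 5′ to the 3′ probe. The probe nearest its 5′ end read 8.94, 9.35, 10.26 and 10.45 in controls and 7.63, 8.41, 8.54 and 7.89 in silenced cells, a change of -1.63 (SE 0.37, limma adjusted p 0.0123). The middle probe read 15.81, 15.88, 15.80 and 15.95 against 14.61, 15.00, 14.05 and 14.63, a change of -1.29 (SE 0.23, limma adjusted p 0.00433). Both fell without overlap, while the probe with the polyadenylation signal changed by -0.11.

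Eef1g and Eef1d, subunits of the eEF1 exchange factor, showed the same order. The 5′ probe of Eef1g read 12.75, 13.22, 12.58 and 13.21 in controls and 11.75, 11.98, 11.33 and 11.75 in silenced cells, and fell by 1.24 on the log2 scale (SE 0.23, limma adjusted p 0.00584). Its other probes changed by -0.15 and 0.15. The 5′ probe of Eef1d changed by -0.95 (SE 0.19, limma adjusted p 0.00691) and its 3′ probe by -0.09.

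In Eif2b4 the probes pointed opposite ways. The 5′ probe read 7.48, 7.98, 7.33 and 8.23 in controls and 6.64, 6.69, 6.57 and 5.81 in silenced cells, a change of -1.33 (SE 0.28, limma adjusted p 0.0097). The 3′ probe changed by 0.57 and was not called.

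All 4 tested probes of Eif4g1 lay below control, although 1 was not called. In order from the 5′ end they changed by -1.68, -0.51, -2.06 and -0.97, of which the second missed the threshold (limma adjusted p 0.171). Probes 1 and 3 were well above background on all control arrays and on no silenced array. Control signal was at least 2.60-fold higher for probe 1, and at least 3.32-fold for probe 3. For Eif4g2 the probes changed by -0.35, -1.32 and -0.78 in the same order, the first of them not called.

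**Figure D3:**
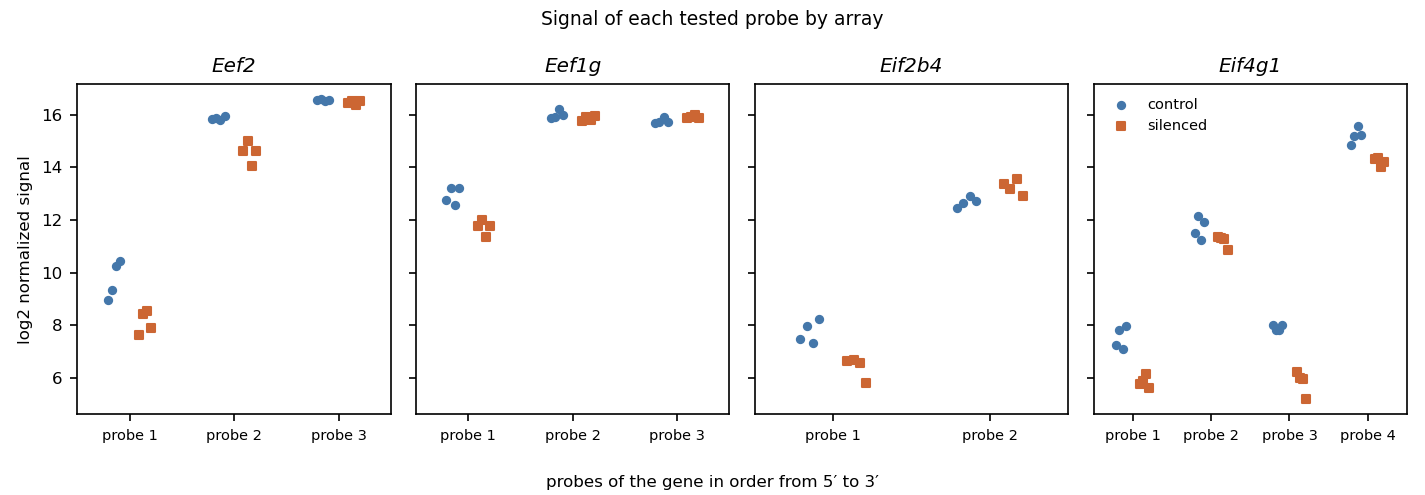
Log2 normalized signal (y axis) of every tested probe of Eef2, Eef1g, Eif2b4 and Eif4g1 on each array, with probes in order from 5′ to 3′ on the x axis. The 5′ probe of Eef2 changed by -1.63 and the 3′ probe by -0.11, while all 4 probes of Eif4g1 lie lower in silenced cells.

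The difference between the outermost probes of a gene was then tested within arrays, so that a scaling of the whole array cancels. Of 32 members with a pair of such probes, the 5′ probe fell relative to the 3′ probe past the threshold in 10 (31.2%; background 31.8% of 6110 genes) and rose in 1 (background 7.14%). The difference was below 0 in 21 members (65.6%), and over all 6110 genes in 70.5%. For Eef1a1, counted above 0 (0.80, not called), the genomic order was the reverse of the order in the transcript. The probe taken as 5′ lies at transcript position 1605 and the one taken as 3′ at 383. Its median was -0.23 over the members and -0.43 over all genes. The share of lower calls among translation factors was thus close to that of all genes, and no difference between them was tested.

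The 10 were Eif2b4, Eef2, Eef2k, Eef1g, Eif4b, Eif2d, Eif4e, Eif3k, Eef1d and Eif1. In Eif2b4 the 5′ minus 3′ difference was -4.98, -4.67, -5.59 and -4.47 in controls and -6.74, -6.47, -6.97 and -7.11 in silenced cells, a change of -1.89 (SE 0.28, limma adjusted p 0.00129). In Eef1g it was -2.91, -2.50, -3.33 and -2.52 against -4.13, -3.92, -4.63 and -4.13, a change of -1.39 (SE 0.25, limma adjusted p 0.00333). The groups were apart in both, and in all 10 except Eif4b. Eef2 changed by -1.52 (SE 0.38, limma adjusted p 0.0134) and Eef2k by -1.40 (SE 0.28, limma adjusted p 0.00464). The 5′ probe of Eef2k was well above background on no silenced array, so its value there is only a bound.

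Eif1 was a gene in which neither probe was called. Its probes lie 664 bases apart in the genome and changed by -0.37 and 0.45, yet their difference changed by -0.82 (SE 0.22, limma adjusted p 0.0174). Eif6 was the exception, with a 5′ minus 3′ difference that rose by 1.41 (SE 0.36, limma adjusted p 0.0148). Its 5′ probe was designed to another record, AK018313, than its 3′ probe. The same holds for Eif2b4, Eef2k, Eif2d, Eif4e and Eif3k among the 10. The 5′ probe of Eif2d was well above background on no array, and the outermost probes of Eif4e on 1 array each.

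**Figure D4:**
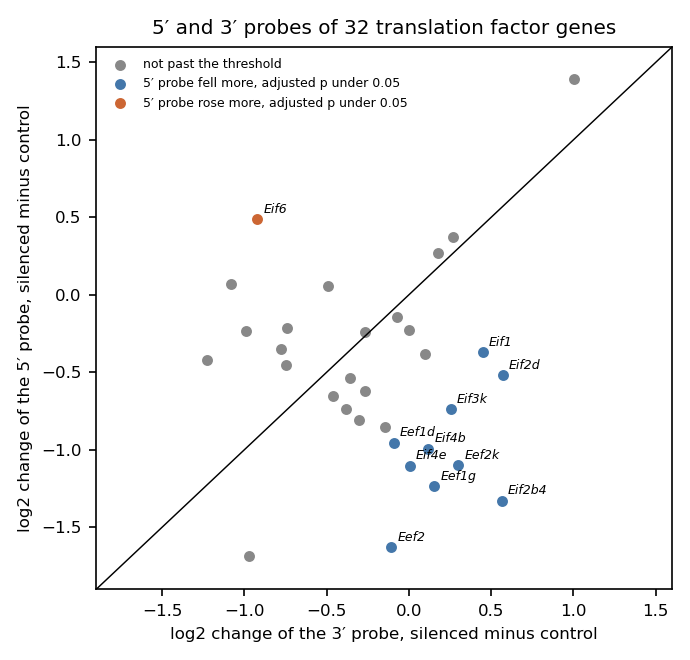
Log2 change of the 3′ probe (x axis) and of the 5′ probe (y axis) of the 32 translation factor genes with a pair of probes, with the line of equal change. The 10 genes called lower all lie below the line, and Eif4g1 (-1.68) and Eef2 (-1.63) are lowest on the y axis, while Eif6, called the other way, lies above the line.

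Probes were also grouped by whether they hold the letters of a polyadenylation signal, which do not fix a probe's position: the 5′ probes of Eif1, Eif4e and Eif3k hold them too. Of the 109 tested member probes, 17 held AATAAA or ATTAAA (15.6%), against 14.9% of all tested probes. The 17 had a median change of -0.09 with 1 called lower (5.88%; 6.64% of all probes with a signal) and 0 higher (10.2% of all). The 92 without had a median of -0.39 with 20 called lower (21.7%; 20.4% of all probes without one) and 2 higher (2.17%; 3.84% of all). The members' shares of lower calls lay near those of all probes. Over all 28649 probes the medians were 0.17 for the 4265 with a signal and -0.26 for the 24384 without. Across the 109 member probes, change and GC content had a Pearson r of -0.32 and a Spearman rho of -0.26, where probes of 1 gene share a transcript and all share the same 8 arrays; over all probes r was -0.17 and rho -0.20.

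Genes around the factors were read from 6 lists of 53 genes, of which 51 were tested. Of these, 2 were called higher (6.59% of all genes were) and 6 lower (13.2% of all genes), so in this fit neither number stood above the background. Some other settings gave shares above it. The median change was -0.02. Among poly(A) and cap partners Pdcd4, which encodes an inhibitor of eIF4A, fell, with control values of 11.22 to 11.96 and silenced values of 10.34 to 11.02 (SE of the change 0.26, limma adjusted p 0.0208), a call lost without control replicate 2 or 4 or silenced replicate 3 (limma adjusted p 0.052, 0.069 and 0.051). Pabpc1, the poly(A)-binding protein that meets eIF4G, changed by -0.23 and was not called.

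Of 10 genes of the mTOR pathway, 2 fell and 1 rose, beside 13.2% and 6.59% of all genes, with no test of the list. Rps6kb2, an S6 kinase, went from 9.60 to 10.08 in controls to 7.87 to 8.42 in silenced cells (change -1.75, SE 0.21, limma adjusted p 0.000928). Akt1 changed by -0.84 (limma adjusted p 0.011), a call lost with the replicate number or the slide row as a block (limma adjusted p 0.052 and 0.063). Ddit4, which encodes the mTOR inhibitor REDD1, rose from 12.35 to 12.89 to 13.77 to 14.15 (change 1.35, SE 0.21, limma adjusted p 0.00229). Mtor itself changed by -0.85 (limma adjusted p 0.127).

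Downstream of eIF2 phosphorylation, Ppp1r15a, the stress-induced subunit of the eIF2 phosphatase, fell (change -0.80, SE 0.18, limma adjusted p 0.0125), a call lost without control replicate 4 (-0.77, limma adjusted p 0.052), while Atf4 changed by -0.11 and was not called. Abce1, which splits ribosomes after termination, fell by 0.75 on the log2 scale (limma adjusted p 0.0285), but the call was lost without control replicate 1, 2 or 4 or silenced replicate 1 or 3 (-0.68 to -0.77, limma adjusted p 0.056 to 0.098). Dph1, needed for the diphthamide of eEF2, fell by 1.02 (limma adjusted p 0.00834). Among 8 tested mitochondrial translation factors, 1 was called higher (6.59% of all genes were) and 0 lower (13.2% of all genes). It was Mtif2, the mitochondrial counterpart of an initiation factor, with control values of 11.60 to 12.84 and silenced values of 13.43 to 14.29 (change 1.62, SE 0.30, limma adjusted p 0.00552).

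Support for the 7 calls differed between genes. Eif2ak1, Eif4a3 and Eif4g3 were called lower in the fit as reported and in all 20 other settings run on their probes. Eif4a3, Eif4g3 and Eif4ebp3 each had only 1 tested probe, so no other tested probe could be compared. Eif4g1 and Eif4ebp3 lost the call only with the slide row as a block (limma adjusted p 0.057 and 0.065). The arrays stood in rows of 4 on 1 slide, with 3 controls and 1 silenced array in the first row and the reverse in the second. Within the rows the changes were -1.80 and -2.23 for Eif2ak1, -0.98 and -0.99 for Eif4a3, -0.99 and -1.18 for Eif4g3, -0.89 and -1.02 for Eif4g1, -0.65 and -0.93 for Eif4g2, and 1.24 and 0.69 for Eif2ak3. The median over the members was -0.10 in the first row and -0.26 in the second, with 0.09 and -0.15 over all genes. Eif4ebp3 had -0.79 in the first row and the larger fall in the second.

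**Figure D5:**
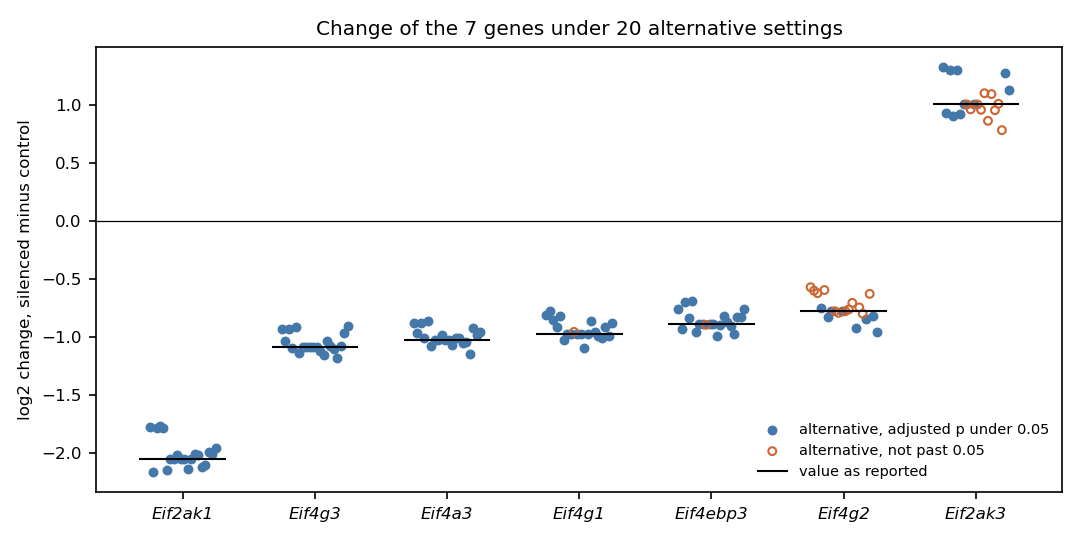
Log2 change (y axis) of the 7 called genes under 20 alternative settings, filled where the adjusted p was under 0.05 and open where it was not, with a line at the value as reported. Eif2ak1, Eif4g3 and Eif4a3 have filled points only, and Eif4g2 and Eif2ak3 have the most open ones.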

How the data were processed

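Total RNA of 8 C2C12 cultures was labelled with Cy3 and hybridised to arrays on 1 slide. The authors deposited scanner files of spot intensity, background-subtracted by Feature Extraction (12.0.0.7 per the file headers, 10.7.3.1 per the labels), and a table of normalized intensity (quantile normalized per the study's methods). The 0 or 1 flags (another deposited unit) for signal and outliers came from the same files.

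Following the study's methods, log2 values of the deposited intensities were set to missing where not positive and significant, quantile normalized and averaged per probe. Control spots and outliers were left out. The fit took probes measured on 3 or more of the 4 arrays in both groups and was made with limma 3.58.1 (R 4.3.3), group as the only term, with Benjamini-Hochberg adjustment over all 28649 probes at 0.05. Alternatives were other normalizations, background and masking rules, probe rules, array blocks, a robust prior, the methods' t-test (the study names unequal variance for the silenced arrays, and a permutation t-test with Bonferroni correction for another comparison; Benjamini-Hochberg was used here), and 1 or 2 arrays left out. The outermost tested probes of a gene, by mm9 coordinates and strand, were fitted as within-array differences over 6110 genes. A bound ("at least") sets the bright group against the lowest signal well above background on each dim array.

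Symbols are those of the array design, and all 64 matched the RefSeq table of GRCm38.p6. Named were up to 8 called members in each direction, 28 factors named whatever their values, the 8 called genes with the largest difference between probes, and up to 6 called pathway genes in each direction. Eef1d, Eif2b1, Eif2a and others outside that rule were named after their values were seen. The members and lists were chosen with earlier results of these data known. The lists were those of oligopyrimidine-tract mRNAs, 6 pathway lists, myoblast markers and liver transcripts. Labels call the cultures biological replicates. Replicate numbers did not pair the arrays (correlation of deviations -0.04, 0.19, 0.22 and 0.06). Scripts were tested on simulated data. The number of arrays limits precision. Figures were drawn with matplotlib 3.10.9.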

Additional observations from a re-analysis of the deposited data

Results flagged for a closer look

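Single arrays stood apart from the other 3 of their group for 4 named genes, by a Dixon test of 4 values. Eif2s3x, the eIF2 gamma subunit, read 7.60 in silenced replicate 4 and 10.74 to 11.29 on the other silenced arrays. Eif2b5, the catalytic eIF2B subunit, read 10.83 in silenced replicate 4 and 12.37 to 12.53 on the others. Eef2k, the eEF2 kinase, read 6.77 in control replicate 3 and 9.74 to 10.03 on the others. Abce1, the ribosome recycling factor, read 13.38 in silenced replicate 2 and 13.10 to 13.13 on the others, so its whole range was small. These are 4 of 82 groups tested, and chance flags about 1 in 20. Measured from each gene's mean over all 8 arrays, silenced replicate 4 lay at a median of -0.46 over the members and -0.53 over all genes.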

How the results depend on the processing

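Of the values of 41 named genes under the alternatives, 704 kept their direction and their side of the threshold, 44 lost the call, 33 gained it and 30 reversed. The count of translation factor genes called, 7 as reported (1 higher, 6 lower), was 13 with cyclic loess, with the authors' table and without masking of dim spots (7 higher, 6 lower in each), 13 with only spots well above background (1 higher, 12 lower, or 20.0% lower against 18.7% of all genes), 12 with normexp (2 higher, 10 lower, or 16.7% against 14.6%) and 16 with a robust trended prior (4 higher, 12 lower, or 20.0% against 14.9%). With the slide row as a block it was 3 (0 higher, 3 lower, or 5% lower against 5.52%). With the 2 arrays in doubt (control replicate 3 and silenced replicate 4) left out, a setting chosen after seeing the data, it was 15 (5 higher, 10 lower). These were 8.77% and 17.5% of the members, against 25.7% and 17.6% of all genes. Leaving out 1 array gave 5 to 10 calls; the 10, without silenced replicate 4, added Eif1, Eif2b4 and Eif2d as higher, where 17.1% of all genes were higher and 13.0% lower. Without control replicate 3, Eif2a and Eif4ebp2 joined as lower and Eif2d as higher. The methods' t-test called 19 members unadjusted at the 0.05 level and 5 after Benjamini-Hochberg adjustment (8.33% lower against 7.51%). The lower share also passed that of all genes without control replicate 2 (8.47% against 7.61%) or 4 (8.77% against 7.40%). The members' median minus that of all genes was -0.15 as reported and -0.27 to -0.06 over the settings.

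The count for the other genes of the pathway was 8 as reported (2 higher, 6 lower of 51). It was 18 with cyclic loess (11 and 7, beside 24.4% and 13.5% of all genes). With the 75th percentile it was 15 (6 and 9, beside 10.3% and 17.4%). With the authors' table it was 21 (12 and 9, beside 23.1% and 11.8%). Without masking it was 19 (12 and 7, beside 21.9% and 10.3%). Only spots well above background gave 13 (4 and 9, beside 7.55% and 18.7%). The slide row gave 4 (2 and 2, beside 2.53% and 5.52%) and the robust prior 14 (7 and 7, beside 9.21% and 14.9%). Without the arrays in doubt it was 24 (12 and 12 of 50, beside 25.7% and 17.6%). With 1 array left out it was 5 to 16 (the 16 without silenced replicate 4, 9 and 7, beside 17.1% and 13.0%). Some of these shares lay above those of all genes, with no test. The count of probe pairs, 11 as reported, was 7 with the slide row and 8 to 17 with 1 array left out (8 without control replicate 1, 17 without control replicate 3). Normexp and complete probes were added for the pairs after seeing the data and gave 13 and 11. The replicate numbers shared by the groups did not pair the arrays: with a replicate block, 5 translation factor genes (all lower, without Eif4g2 and Eif2ak3, whose adjusted p was 0.056 and 0.085), 4 other pathway genes (2 higher and 2 lower, without Akt1, Pdcd4, Ppp1r15a and Abce1) and 13 probe pairs were called. With that block 4.89% of all genes were higher and 9.03% lower, against 0% and 8.33% of the translation factor genes.

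The values that reversed were all uncalled. With cyclic loess, the 75th percentile, the authors' table and no masking, Eif2s1 was at 0.14, 0.11, 0.061 and 0.081 and Eif4e at 0.095, 0.021, 0.064 and 0.083. With the 75th percentile and only spots well above background, Eif2ak4 was at -0.066 and -0.071 and Eif5b at -0.082 and -0.023. With normexp Eif2ak4 was at -0.0093, and with the replicate block Eif5b was at -0.19. Without the arrays in doubt, Eif2s1, Eif2s3x and Eif3c were at 0.16, 0.38 and 0.077. With 1 array left out, the changes ran from -0.28 to 0.37 for Eif2ak4, -0.21 to 0.071 for Eif2s1, -0.87 to 0.35 for Eif2s3x, -0.038 to 0.26 for Eif4b, -0.30 to 0.053 for Eif4e and -0.19 to 0.43 for Eif5b, which the authors' table and no masking put at 1.44 and 1.43, uncalled. The cause was not tested. With 4 arrays a group, 1 slide and 1 line, small changes could not be resolved, and signal near background bounds the dim probes.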
